A study of Saccharomyces cerevisiae with 71 samples.

Results

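The tRNAs that carry serine and threonine were read by 7 of the 41 probes on a yeast tRNA microarray: Ser-8, Ser-9, Ser-10 and Ser-11 for serine, and Thr-5, Thr-7 and Thr-8 for threonine. They were chosen by name alone, as every probe whose name begins with Ser or Thr. The files number the probes and do not pair them with anticodons or tRNA genes, so each probe is given by its number, and different numbers are taken as different isoacceptors, that is, different tRNAs for the same amino acid.

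Charging, the share of a tRNA that has its amino acid attached, was compared in Saccharomyces cerevisiae between cells moved to medium lacking 1 or more amino acids and a reference culture of the same strain. The wild-type strain WY798 is prototrophic, with LEU2, TRP1 and URA3 restored in the parent EG328-1A, and the isogenic gcn2Δ strain WY799 carries URA3 in place of GCN2, the kinase that senses uncharged tRNA. Both strains were cultured without Trp, without Arg, without His, without Trp, Phe and Tyr together, and without Arg but with ornithine, each for 15 and 60 min, and without Leu for 5, 45 and 120 min. This gave 26 depleted cultures on 46 arrays, 13 cultures of each strain, and no condition had a second culture. In addition, 3 arrays measured tRNA abundance. Every medium kept serine and threonine, so all depletions were non-cognate for these 7 probes.

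Serine tRNAs belong, with leucine tRNAs, to the class with a long variable arm, and the seryl-tRNA synthetase Ses1 recognises that arm rather than the anticodon. Threonine tRNAs are of the common class with a short variable arm and are charged by the threonyl-tRNA synthetase Ths1. Serine is a precursor of glycine and cysteine and a substrate of the last step of tryptophan synthesis, while threonine is made from aspartate and is itself the precursor of isoleucine.

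Each value below is a log2 charging change: charged over total tRNA in the depleted culture, relative to the same measure in its reference, centred on the median of the 41 probes and averaged over the arrays of a culture. A value of 0 thus means a change equal to that of the median tRNA, and the uniform loss of charging of all tRNAs could not be seen. Of the 26 cultures, 20 were hybridized on 2 arrays with the dyes exchanged and 6 on 1 array. The 4 Trp arrays with total tRNA in Cy5 were turned, since their deposited values correlated negatively with the Cy3 partner (r from -0.90 to -0.22 over the 41 probes). That direction is only a likely one, because no label gives it. For Leu depletion the partners correlated at -0.48 to 0.22, and the direction of the Cy5 arrays is not settled, so those cultures are described separately.

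Serine and threonine tRNAs kept close to the median tRNA in the 20 cultures at 15 and 60 min. Of 140 member values, 134 (95.7%) lay within 0.3 of 0 on the log2 scale, that is, within 1.23-fold, a limit chosen after the values were seen. For the other 34 probes this was so for 543 of 680 values (79.9%), and for the 22 of these whose amino acid was never removed, for 350 of 440 (79.5%). The serine probes lay within the limit in 78 of 80 values and the threonine probes in 56 of 60. In the 6 Leu cultures as deposited the order was the other way, with 36 of 42 member values (85.7%) and 191 of 204 of the other probes (93.6%) within it, and there the threonine probes gave 12 of 18 and the serine probes 24 of 24. The lowest member value was -0.27 (0.827-fold) and the highest 0.58 (1.50-fold). The standard deviation over the 20 cultures was between 0.12 for Ser-11 and 0.18 for Thr-7, and its median over all 41 probes was 0.19.

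**Figure D1:**
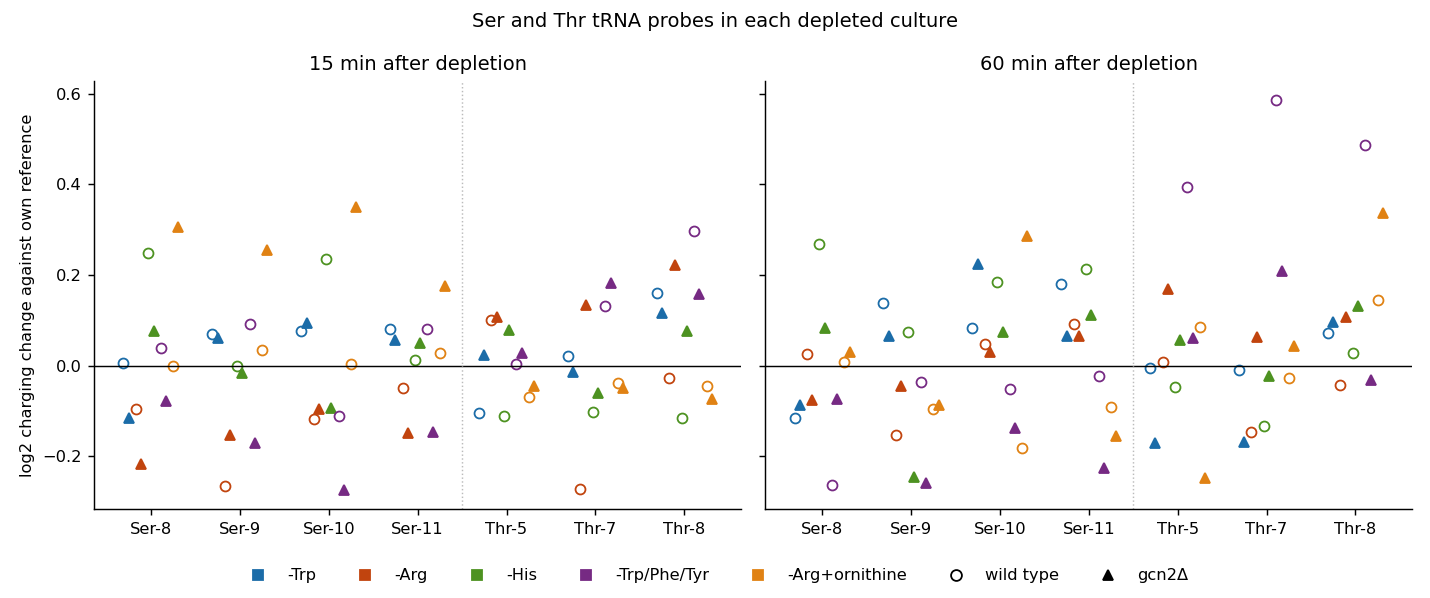
Log2 charging change (vertical axis) of the 7 probes in each culture at 15 min (left) and 60 min (right); colours mark the medium, open circles the wild type and triangles the gcn2Δ strain. Most points lie between -0.27 and 0.35, and the 3 threonine probes of the wild type without Trp, Phe and Tyr at 60 min lie at 0.39, 0.58 and 0.49.

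The values of the serine probes overlapped. At 15 min Ser-8 ranged from -0.22 to 0.31 with a median of 0.00, Ser-9 from -0.27 to 0.26 with a median of 0.02, Ser-10 from -0.27 to 0.35 with a median of -0.05, and Ser-11 from -0.15 to 0.18 with a median of 0.04 (10 cultures each). The gcn2Δ culture without Arg and with ornithine gave the highest value of all 4 probes, 0.31, 0.26, 0.35 and 0.18, and it was read on 1 array. At 60 min the medians were -0.03 for Ser-8, -0.07 for Ser-9, 0.06 for Ser-10 and 0.06 for Ser-11, and the lowest and highest values over these probes were -0.26 and 0.29. No serine probe was on the same side of 0 in all 10 cultures of a time.

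Among the threonine probes, Thr-8 was the one most often above 0. In the wild type at 60 min Thr-8 was at 0.07 without Trp, -0.04 without Arg, 0.03 without His, 0.49 without Trp, Phe and Tyr, and 0.14 without Arg and with ornithine. In the gcn2Δ strain the values in the same order were 0.10, 0.11, 0.13, -0.03 and 0.34. It was thus above 0 in 8 of 10 cultures at 60 min, in 6 of 10 at 15 min and in 14 of all 20. Thr-5 ranged from -0.25 to 0.39 and Thr-7 from -0.27 to 0.58 over the 20 cultures, and they were above 0 in 12 and 8 of them. The serine probe Ser-11 was above 0 in 13 of 20, and the probes outside serine and threonine were not counted in this way. Of these cultures, 14 had arrays of both dye orientations, and Thr-8 had the same sign on both in 6. Its counts thus do not show a steady rise.

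Whether charging changed in common over the media was tested with limma against 0 over the 10 cultures of a time, with Benjamini-Hochberg adjustment over the 41 probes. No member passed an adjusted p of 0.05 at either time, and no other probe did (0% of 41 at 15 min and 0% at 60 min). Without adjustment, p was below 0.05 for no member and 1 probe in all at 15 min, and for 1 member and 4 probes in all at 60 min. That member was Thr-8, with a mean of 0.13 (SE 0.05, 95% confidence interval 0.02 to 0.25, adjusted p = 0.335 in limma) at 60 min. At 15 min its mean was 0.08 (interval -0.02 to 0.18). Over all 7 probes the intervals lay within -0.12 and 0.18 at 15 min and within -0.17 and 0.25 at 60 min, so a mean change outside 0.892-fold to 1.19-fold lay beyond each of them. The median estimate was 0.01 for the members and 0.01 for all probes at 15 min, and 0.03 and 0.02 at 60 min.

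The strains were compared within the 5 media. At 15 min the mean of Thr-7 was -0.05 ± 0.15 (SD, n = 5) in the wild type and 0.04 ± 0.11 (SD, n = 5) in the gcn2Δ strain, a difference of 0.09, the largest of any member at that time. Thr-5 was higher in the gcn2Δ strain in 5 of 5 media at 15 min and in 2 of 5 at 60 min. The difference was 0.07 at 15 min and -0.11 at 60 min. Ser-11 was lower in the gcn2Δ strain in 5 of 5 media at 60 min and in 3 of 5 at 15 min. The differences were -0.10 and -0.03. These counts of 5 of 5 were the extremes among the 7 probes at both times. In the other combinations of probe and time the gcn2Δ strain was higher in 1 to 4 of 5 media. How often the remaining probes of the array reached 5 of 5 was not examined here. The counts alone thus do not show a strain effect. The ranges of the strains overlapped for each of the 7 probes at both times.

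With medium as a block, limma called no strain difference for any member or any other probe (0% of 41 at each time). Unadjusted p was below 0.05 for 0 members and 2 probes in all at 15 min, and for 0 probes at 60 min. The smallest adjusted p of a member was 0.756 at 15 min and 0.849 at 60 min. These comparisons were less precise than those over all cultures. Member intervals reached from -0.28 to 0.31 at 15 min and from -0.39 to 0.35 at 60 min, so that differences of up to 1.28-fold in favour of the gcn2Δ strain, or down to 0.766-fold, were within them.

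Averaged over the pairs, the same strain and medium differed little between 15 and 60 min. The mean paired difference, 60 min minus 15 min over 10 pairs, was between -0.06 for Ser-9 and 0.06 for Thr-8. Single pairs moved further, in both directions. Thr-7 in the wild type without Trp, Phe and Tyr went from 0.13 to 0.58. Ser-9 in the gcn2Δ strain without Arg and with ornithine went from 0.26 to -0.09. Values at 60 min were higher in 7 of 10 pairs for Ser-8 and Ser-10, in 6 for Ser-11, Thr-5 and Thr-7, and in 5 for Ser-9 and Thr-8. No member and no other probe was called by limma (0% of 41), and no probe had an unadjusted p below 0.05. The member intervals lay within -0.17 and 0.19. Both times of a strain and medium share 1 reference, so the cultures at 60 min are not independent of those at 15 min.

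**Figure D2:**
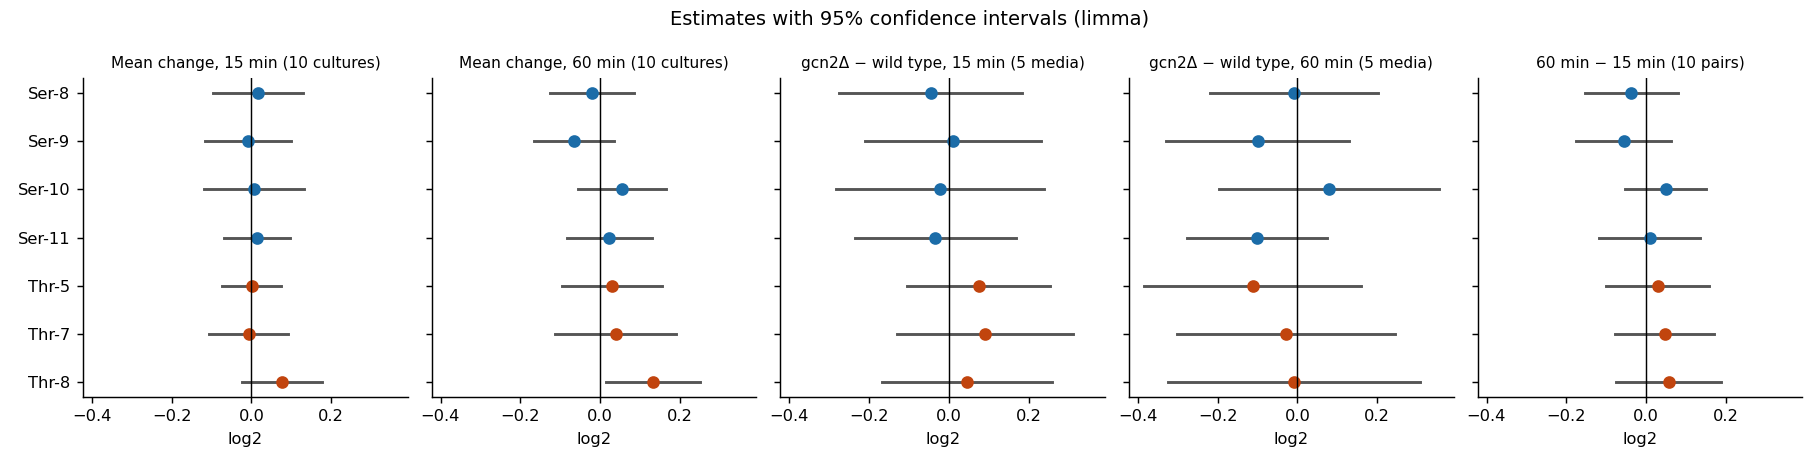
Estimates (points) with 95% confidence intervals (lines) from limma, on the log2 scale, for the mean change at each time, the difference between strains at each time, and the difference between times; serine probes in blue and threonine probes in orange. All intervals include 0 except that of the mean of Thr-8 at 60 min, 0.02 to 0.25, which did not pass the adjustment.

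A difference between the 5 media was tested with an F test, in which the strains of a medium serve as its replicates. No member was called at 15 min, where 1 of the 41 probes was (2.44%), or at 60 min, where none was (0%). At an unadjusted p below 0.05 there were 0 members and 4 probes at 15 min, and 0 members and 1 probe at 60 min. The probe called at 15 min was Trp-3, whose amino acid was itself removed in 2 of the media. For the members, F lay between 0.56 and 1.61 at 15 min and between 0.44 and 3.00 at 60 min, and the smallest adjusted p was 0.691 and 0.832. The mean of Thr-7 over the 4 cultures without Trp, Phe and Tyr was 0.28 ± 0.21 (SD, n = 4), and over those of the other media it lay between -0.08 and -0.02.

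Isoacceptors were compared within each culture, since all 4 serine tRNAs share 1 synthetase, as do the 3 threonine tRNAs. Of the 32 pairs of probes for the same amino acid, 6 were of serine and 3 of threonine. No pair was called at 15 min (0%) or at 60 min (0%). At an unadjusted p below 0.05 there was 1 of the 9 member pairs at each time, and 4 and 1 of all 32 pairs. Thr-7 was below Thr-8 by a mean of -0.08 at 15 min (95% interval -0.16 to -0.01, adjusted p = 0.321 in limma) and of -0.09 at 60 min (-0.21 to 0.02). Ser-9 was below Ser-10 by -0.12 at 60 min (-0.23 to -0.01, adjusted p = 0.387) and by -0.02 at 15 min. Intervals over the 9 pairs lay within -0.17 and 0.12 at 15 min and within -0.24 and 0.18 at 60 min.

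The serine and the threonine probes often lay apart in the same culture. They did not overlap in 8 of the 20 cultures at 15 and 60 min, with threonine above serine in 4 and below in 4. Over all pairs of the 6 amino acids with at least 3 probes, Arg included, this was so for 74 of 300 combinations of pair and culture (24.7%). The 8 of 20 for serine and threonine was matched by serine and valine, and the other 13 pairs gave 2 to 7. Threonine was above in the gcn2Δ strain without Arg at 15 min, in the wild type without Trp, Phe and Tyr at 60 min, and in the gcn2Δ strain in that medium at both times.

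In the medium lacking Trp, Phe and Tyr the separation ran the same way in each culture. The mean of the 3 threonine probes was 0.14 in the wild type at 15 min and 0.49 at 60 min, and in the gcn2Δ strain it was 0.12 and 0.08. The mean of the 4 serine probes was 0.03 and -0.09 in the wild type and -0.17 and -0.17 in the gcn2Δ strain. The difference between these means, threonine minus serine, was 0.12, 0.58, 0.29 and 0.25, and only the wild type at 15 min had overlapping probes. Thr-7 and Thr-5 were above 0 in 4 of these 4 cultures and Ser-10 in 0 of 4, and 3 of the 4 cultures were read on 1 array. The medium was picked out by its values, and both times of a strain share 1 reference, so the 4 cultures are not independent. How often other pairs of amino acids keep the same order throughout a medium was not examined here.

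The order was the reverse in other cultures. Without His the serine mean was 0.12 and 0.18 in the wild type at 15 and 60 min and the threonine mean was -0.11 and -0.05. In the gcn2Δ strain without His the serine means were 0.00 and 0.01, the threonine means 0.03 and 0.06, and the probes overlapped. Without Arg and with ornithine, the gcn2Δ strain at 15 min had the highest serine mean of the 20 cultures, 0.27, beside a threonine mean of -0.06. In the wild type of that medium at 15 min the means were 0.02 and -0.05, and the probes were apart by small amounts. Without Trp the families overlapped in each of the 4 cultures. That depends on the turned arrays. With the Cy5 arrays as deposited, threonine would lie above serine without overlap at 60 min in both strains, at 0.01 to 0.12 against -0.19 to -0.07 in the wild type and at -0.07 to 0.05 against -0.20 to -0.18 in the gcn2Δ strain, and Ser-10 in the latter would be at -0.20 instead of 0.22.

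**Figure D3:**
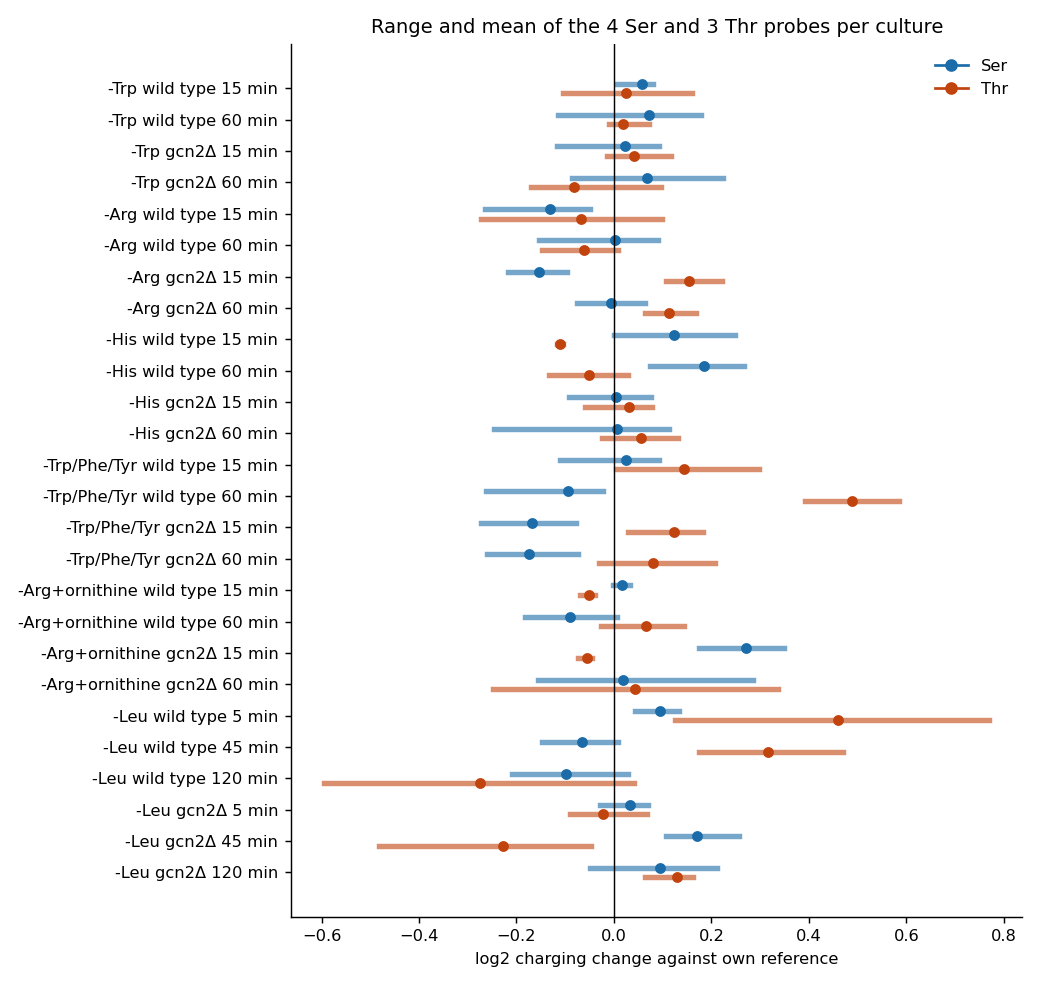
Range (bar) and mean (point) of the log2 charging change of the 4 serine probes (blue) and the 3 threonine probes (orange) in each of the 26 depleted cultures. Bars do not overlap in 10 of the 26 cultures, with threonine above in 5 and serine above in 5; 2 of the 10 are Leu cultures as deposited, and over all pairs of amino acids with at least 3 probes the share was 22.3% (87 of 390).

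Members of a family moved with each other more than with the other family. Over the 20 cultures Pearson's r between serine probes was 0.37 to 0.67 (median 0.53, 6 pairs), and between threonine probes 0.34 to 0.71 (median 0.59, 3 pairs). Between a serine and a threonine probe it was -0.58 to -0.04 (median -0.33), below 0 in 12 of 12 pairs. With the Leu cultures added as deposited, r was above 0 for Ser-9 with Thr-7 (0.07) and with Thr-8 (0.06). The other pairs of a serine and a threonine probe stayed below 0. Ser-9 and Ser-11 differed by a median of only 0.04 on single arrays, so serine pairs need not be pairs of separate tRNAs. The same r values for other amino acids were not examined here. Whether the pattern is particular to serine and threonine was thus not tested. These values describe 20 cultures that share references and arrays, and each array was centred on the same 41 probes.

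Each of 24 cultures was set against 6, 8 or 10 cultures of media that kept the tested amino acids. The p-values were adjusted over the 41 probes of each culture and not over the 24 cultures together. In all there were 168 member tests. Of these, 1 passed limma's adjusted p of 0.05, and 7 had an unadjusted p below 0.05. Over all probes 51 of 984 tests had an unadjusted p below 0.05, a share no lower than that of the members, and 16 passed the adjustment (1.63%), and 0.102% passed as higher, which is that 1 test. It was Thr-7 in the wild type after 60 min without Trp, Phe and Tyr, where 2 of the 41 probes were called (4.88%). The other 15 were lower (1.52%). Of these, 13 were probes for an amino acid that the medium lacked, and 2 were Pro-5 and Cys-3.

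Thr-7 in that culture was at 0.58 (1.50-fold), and the 6 comparison cultures lay between -0.15 and 0.06. The difference was 0.62 (SE 0.12, 95% interval 0.33 to 0.91, adjusted p = 0.0313 in limma). It rests on 1 culture read on 1 array, and the lone culture was assumed to vary like the comparison cultures. Since 5 of those 6 were means of 2 arrays, their spread may be below that of single arrays and the p too small. The other threonine probes of the culture were at 0.39 for Thr-5 and 0.49 for Thr-8, each with an adjusted p of 0.216, while the serine probes were between -0.26 and -0.02. In the gcn2Δ strain the same medium and time gave 0.21 for Thr-7, 0.06 for Thr-5 and -0.03 for Thr-8. For Thr-7 that was 0.25 above the comparison cultures (interval -0.04 to 0.54, adjusted p = 0.577). The difference between the strains in this medium was not tested.

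The call depended on the setting. With arrays centred on the non-cognate probes other than serine and threonine, the difference for Thr-7 was 0.64 with an adjusted p of 0.129. With the Arg, the His or the Arg plus ornithine cultures left out of the comparison, the adjusted p was 0.134, 0.213 and 0.0584. With Cy3 arrays alone the difference was 0.61 and the adjusted p 0.0729.

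The serine and threonine probes had few other values with an unadjusted p below 0.05, and none was called. Ser-8 was at 0.27 in the wild type after 60 min without His, 0.34 above the comparison cultures (interval 0.04 to 0.63, adjusted p = 0.770 in limma). It was at 0.25 in that strain at 15 min and at 0.08 in the gcn2Δ strain at both times. The remaining 3 were threonine probes of the Leu experiment.

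The arrays of a culture differed for the members when the dyes were exchanged. For the 14 cultures outside the Leu experiment with arrays of both orientations, the median absolute difference between the 2 arrays was 0.12 for Ser-11, 0.13 for Thr-7, 0.17 for Ser-8 and Thr-5, 0.18 for Thr-8, 0.21 for Ser-9 and 0.25 for Ser-10. Its median over all probes was 0.17. Both arrays gave the same sign in 46 of 98 member values (46.9%) and in 288 of 476 values of the other probes (60.5%). For those other probes whose amino acid was never removed it was 189 of 308 (61.4%). The 14 cultures include the 4 Trp cultures, whose Cy5 arrays were turned for their negative correlation over all probes. Agreement of the other probes is thus partly built in. Signs agreed for 5 and 2 of 7 members in the wild-type Trp cultures at 15 and 60 min. They agreed for 0 and 4 in those of the gcn2Δ strain. Turning exchanges like and unlike signs, so the contrast between members and other probes depends in part on it. By probe, Ser-8 and Ser-9 had the same sign in 5 of 14 cultures, Thr-5 and Thr-8 in 6, Ser-11 in 7, Ser-10 in 8 and Thr-7 in 9. The largest gap of any member, 0.78, was that of Thr-8 in the gcn2Δ strain after 60 min without Arg and with ornithine, where the arrays gave -0.05 and 0.73.

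In the Leu experiment as deposited, Thr-7 had the widest spread of all 41 probes over the 6 cultures (SD 0.53, from -0.59 to 0.77). With the Cy5 arrays turned its SD was 0.32, which 4 other probes exceeded. On the arrays with total tRNA in Cy3, Thr-7 in the wild type was at 0.93 after 5 min, 0.75 after 45 min and -0.96 after 120 min. On the Cy5 arrays as deposited it was at 0.61, 0.19 and -0.23. In the gcn2Δ strain the Cy3 arrays gave -0.29, -1.04 and 0.23, and the Cy5 arrays 0.11, 0.08 and 0.09. The strains thus had opposite signs on the Cy3 arrays at all 3 times, whereas on the Cy5 arrays they differed in sign at 120 min only.

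Thr-8 followed Thr-7 on the Cy3 arrays of the Leu experiment. It was at 0.53, 0.45 and -0.33 in the wild type and at -0.13, -0.40 and 0.28 in the gcn2Δ strain. Thr-5 was at -0.20, 0.00 and 0.32 in the wild type and at 0.20, -0.05 and 0.06 in the gcn2Δ strain, on the other side of 0 from Thr-7 in the wild type at 5 and 120 min. The 3 threonine probes were on the same side of 0 in the gcn2Δ strain at 45 and 120 min, where Thr-5 was the nearest to 0, and on different sides at 5 min. In the wild type without Trp, Phe and Tyr all 3 were above 0.

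The averages of both arrays gave Thr-7 a value of -0.59 in the wild type at 120 min, the lowest of the 41 probes, and of -0.48 in the gcn2Δ strain at 45 min. Against the 10 cultures of the other media at 60 min, the differences were -0.63 (95% interval -1.14 to -0.13, adjusted p = 0.644 in limma) and -0.52 (-1.02 to -0.02, adjusted p = 0.598). Thr-8 in the wild type at 120 min was at -0.27, 0.40 below (adjusted p = 0.644). With Cy3 arrays alone, Thr-7 was called in both cultures. With the Trp, Phe and Tyr cultures left out of the comparison it was called in the wild type at 120 min. The labels place the reference of this experiment at 5 min, and no culture of the other media had a matching time.

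The serine probes of the wild type took opposite signs on the arrays of the Leu experiment. After 5 min they lay between -0.44 and -0.18 on the Cy3 array and between 0.45 and 0.61 on the Cy5 array. After 120 min they lay between 0.17 and 0.62 and between -0.65 and -0.56. As deposited, these cancelled to means of 0.10 and -0.10. With the Cy5 arrays turned, the means became -0.43 and 0.49, and at 45 min 0.08. In the gcn2Δ strain the means were 0.03, 0.17 and 0.09 as deposited and 0.00, 0.08 and 0.08 when turned. Whether serine tRNAs of the wild type changed during Leu depletion thus cannot be read until the direction of these arrays is known. With the arrays turned, the mean of the threonine probes in the wild type was -0.04, 0.08 and -0.04.

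**Figure D4:**
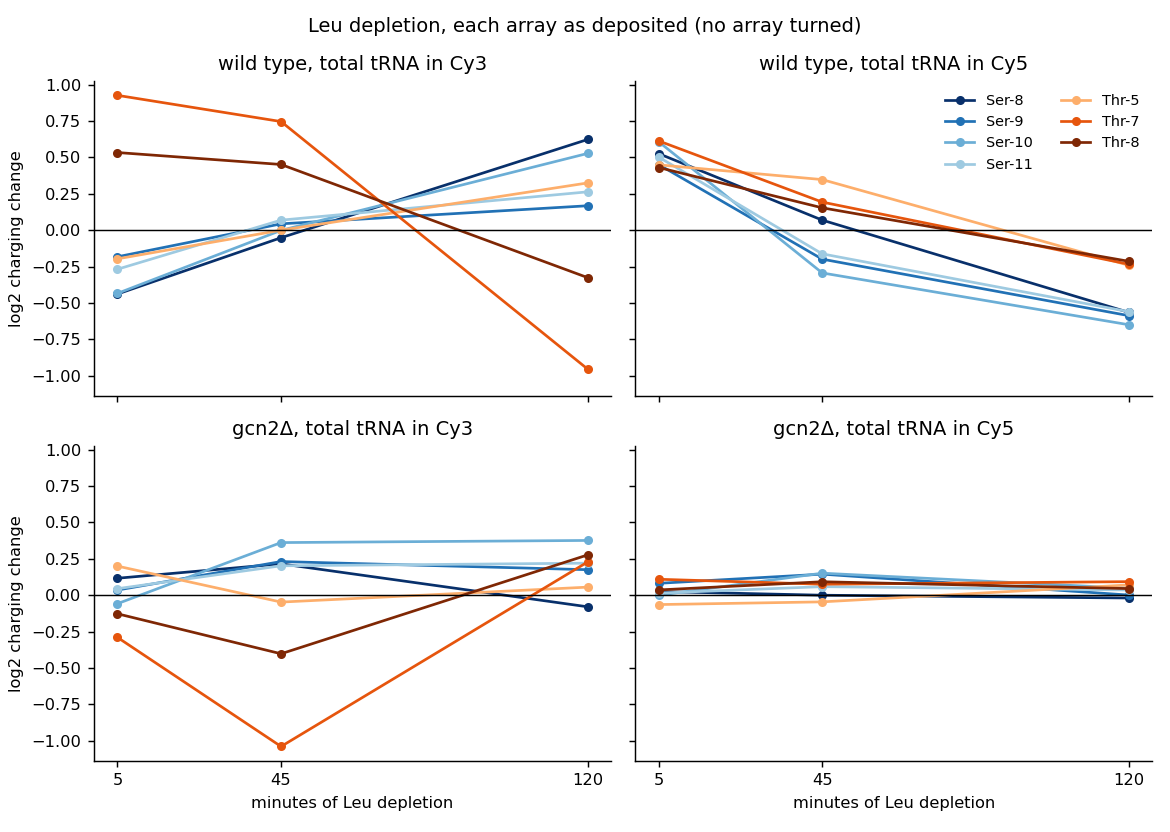
Log2 charging change of the 7 probes against minutes of Leu depletion, for each strain (rows) and dye orientation (columns), each array as deposited. In the wild type the 4 serine probes run from below 0 to above 0 on the Cy3 arrays and from above 0 to below 0 on the Cy5 arrays, while Thr-7 runs from 0.93 to -0.96 and from 0.61 to -0.23.

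The probe most like each member, outside its own amino acid, was found by Pearson's r over the 26 cultures, as a description. For Thr-7 and Thr-8 it was Leu-12, a probe for a leucine tRNA (r = 0.78 and 0.72). This likeness rests in part on the Leu cultures, whose direction is not settled. Over the 20 cultures outside that experiment r with Leu-12 was 0.58 and 0.52, and the most alike probes were Ile-6 for Thr-7 (r = 0.80) and Met-5 for Thr-8 (r = 0.86). On the Cy3 arrays of the Leu experiment Leu-12 was at 0.85, 0.40 and -0.82 in the wild type and -0.60, -1.03 and 0.26 in the gcn2Δ strain, near the values of Thr-7. On the Cy5 arrays as deposited it was at -0.18, 0.08 and 0.42 in the wild type, where Thr-7 was at 0.61, 0.19 and -0.23.

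Over the 26 cultures the most alike probe was Sec-2 for Ser-9, Ser-10 and Ser-11 (r = 0.47, 0.91 and 0.59), Tyr-3 for Ser-8 (r = 0.72) and Ala-5 for Thr-5 (r = 0.54). Without the Leu cultures it was still Sec-2 for Ser-10 (r = 0.93), Tyr-3 for Ser-8 (r = 0.74) and Ala-5 for Thr-5 (r = 0.58), but it was Asp-3 for Ser-9 (r = 0.50, against 0.49 for Sec-2) and Asn-3 for Ser-11 (r = 0.74, against 0.61 for Sec-2). Sec is the usual abbreviation for selenocysteine, whose tRNA in other organisms is first charged with serine by seryl-tRNA synthetase and which baker's yeast is not known to use. The target of the Sec-2 probe is not given in the sources used here.

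Some of these probes were almost interchangeable on single arrays. Over the 46 arrays the median absolute difference between Ser-9 and Ser-11 was 0.04, the smallest of all 820 pairs of probes, for which the median was 0.23. The next smallest was between Ser-10 and Sec-2, 0.05. The largest difference on any array was 0.52 for Ser-9 and Ser-11 and 0.26 for Ser-10 and Sec-2. Among threonine pairs the median difference was 0.12 between Thr-7 and Thr-8, 0.12 between Thr-5 and Thr-8 and 0.14 between Thr-5 and Thr-7. Whether such probes bind the same tRNA was not tested, so counts over the 7 probes need not be counts of 7 separate tRNAs.

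**Figure D5:**
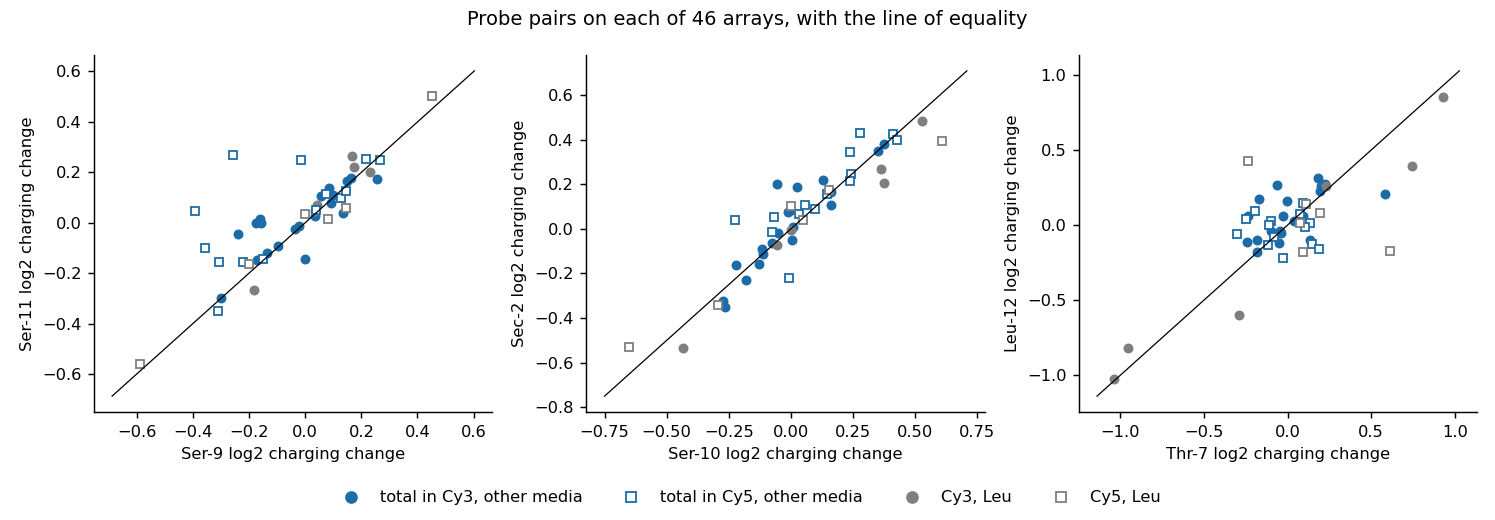
Log2 charging change of Ser-11 against Ser-9 (left), Sec-2 against Ser-10 (middle) and Leu-12 against Thr-7 (right) on each of the 46 arrays, with the line of equality; filled points are arrays with total tRNA in Cy3, open points those in Cy5, grey points the Leu experiment. The Trp Cy5 arrays are shown turned; the points of the first pair of panels follow the line, with median distances of 0.04 and 0.05.

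The lists of related tRNAs gave no call by limma in the tests of common change, strain and time, and 1 in those of medium, Trp-3. Of all 41 probes, the mean change was above 0 for 22 at 15 min and 21 at 60 min, with median estimates of 0.01 and 0.02. The 4 leucine probes, the other long-arm tRNAs, were above 0 in 4 of 4 at both times, with medians of 0.02 and 0.07. Their estimates were small, from 0.01 to 0.06 at 15 min and from 0.04 to 0.09 at 60 min. The 5 probes for glycine, cysteine and tryptophan, which can be made with serine though not always by that route alone, were above 0 in 2 and 1 of 5. Their medians were -0.00 and -0.08. Trp-3 was the 1 of 5 that passed the medium test at 15 min. The 6 probes for isoleucine, aspartate, asparagine and methionine, amino acids of the aspartate and threonine route, were above 0 in 4 of 6 at both times. Their medians were 0.04 and 0.04.

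Abundance was measured in the gcn2Δ strain after 60 min without Trp against the reference, on 1 pair of arrays with the dyes exchanged, and no test was made. With the reference in Cy3 and then in Cy5, the ratio was 1.06 and 1.07 for Ser-8, 1.12 and 0.971 for Ser-9, 1.07 and 0.956 for Ser-10, and 1.10 and 0.966 for Ser-11. Only Ser-8 was above 1 on both. For the threonine probes the ratios were 0.962 and 0.951 for Thr-5, 0.946 and 0.956 for Thr-7, and 0.949 and 0.978 for Thr-8, below 1 on both arrays.

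On the log2 scale the mean abundance of the threonine probes was -0.07 to -0.05 and that of the serine probes 0.02 to 0.09. They ranked 9 to 13 and 24 to 34 from the lowest of the 41 probes, which spanned -0.30 to 0.36. The median difference between the orientations over all probes was 0.11, larger than the size of any of these member means. The members' own differences were 0.02 for Ser-8, Thr-5 and Thr-7 and 0.04 for Thr-8, below the size of their means. For Ser-9, Ser-10 and Ser-11 they were 0.20, 0.17 and 0.19, above it. In the same condition, the charging changes were -0.17 for Thr-5, -0.17 for Thr-7 and 0.10 for Thr-8, and -0.09, 0.06, 0.22 and 0.06 for Ser-8, Ser-9, Ser-10 and Ser-11.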

How the data were processed

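Microarray values were taken from the table of 71 arrays, 68 of charging and 3 of abundance, and each column was matched to its sample by its label. For each of 41 probes the authors deposited a ratio on a linear scale, the charged over the total tRNA divided by that of the matching reference (same experiment, strain and dyes), whose own arrays hold exactly 1. The array medians of depleted cultures were between 0.995 and 1.01. The scanner, the software and any correction for background are not given in the sources used here, signal over background was not analysed here, and the number of arrays limits the precision.

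In R 4.3.3, log2 was taken with no pseudocount, arrays were centred on the median and the arrays of a culture averaged. The 4 Trp Cy5 arrays were turned (the direction is likely, not stated). Tests used lmFit and eBayes of limma 3.58.1 with Benjamini-Hochberg adjustment over the 41 probes or 32 isoacceptor pairs, and a threshold of 0.05. The functions for common change and strain difference were tested on simulated data. Those for time, medium, isoacceptor pairs and single cultures were not. Time points share a reference, so p-values measure the spread between cultures that may not be independent. Leu cultures at 5 min were not tested.

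All 7 serine and threonine probes were named, with the most similar probe of another amino acid and 3 lists of related tRNAs. Other probes were named after their values were seen. The members and lists were chosen with earlier results of these data known. Alternatives were the centring, Cy3 arrays alone, Trp Cy5 arrays as deposited, Leu Cy5 arrays turned, robust moderation, strains averaged, no medium term, the same strain only, Leu 45 min cultures added, and each medium left out. Leaving out single-array cultures, or the gcn2Δ culture with ornithine at 60 min, was chosen after seeing the data.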

Additional observations from a re-analysis of the deposited data

Results flagged for a closer look

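Among 42 groups of 5 or 10 cultures, 3 had an end value set apart from the rest by a gap large against the whole range, and chance gives about 1 in 20. Ser-9 in the wild type after 15 min without Arg was at -0.27, while the nearest of the other 4 wild-type cultures at 15 min was at -0.00. Thr-7 in the wild type after 60 min without Trp, Phe and Tyr, at 0.58, stood apart both among the 10 cultures at 60 min, where the next was at 0.21, and among the 5 of the wild type, where the next was at -0.01. The first value is a mean of 2 arrays and the second comes from 1 array.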

How the results depend on the processing

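The tests of common change, strain, time, medium and isoacceptors gave 0 called members under each alternative run. The abundance values come from 1 pair of arrays, and a value from 1 of them always lies within 1 SD of their mean. Staying within that spread thus cannot show how stable they were. The count of single-culture calls among members, 1, became 0 with centring on the non-cognate probes other than serine and threonine, 2 with Cy3 arrays alone (Thr-7 without Leu, in the wild type at 120 min and the gcn2Δ strain at 45 min), and 0 with single-array cultures left out, a setting chosen after seeing the data that removes the called culture itself. Leaving out each medium in turn gave 0 to 2. The cause was not tested. The difference for Thr-7 in the wild type without Trp, Phe and Tyr at 60 min was between 0.60 and 0.69 in the settings that kept the culture, with an adjusted p from 0.0164 to 0.213. No called value changed sign, but uncalled values did. With the reference in Cy5 alone the log2 abundance of Ser-9, Ser-10 and Ser-11 was -0.04, -0.07 and -0.05, against means of 0.06, 0.02 and 0.04. With Trp Cy5 arrays as deposited, the charging change of Ser-10 in the gcn2Δ strain at 60 min went from 0.22 to -0.20. Pairing by replicate number was not used, since the labels give none; the strain and time tests were paired by medium and by strain and medium. The precision is limited by 1 culture per condition and by dye pairs that differed by a median SD of 0.32 over the probes.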
